A study of Mus musculus with 20 samples.

Results

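Cholesterol synthesis and its control were followed through 27 genes: 19 enzymes of the route from acetyl units to cholesterol and its isoprenoid branch, 4 genes that sense sterols (Srebf2, Scap, Insig1 and Insig2) and 4 that take up, move or esterify cholesterol or control its uptake (Stard4, Npc1l1, Soat2 and Mylip). The genes were taken by name, and each was read from its brightest detected probe. Of the 27, 26 were kept by the filter on dim probes, out of 21998 genes tested in all, and each of these 26 probes was well above background on all 20 arrays. Npc1l1, an importer of sterols, had a probe well above background on 1 of 20 arrays and has no value here.

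The samples were livers of ovariectomized mice in 4 groups of 5 animals, with 1 one-colour microarray per animal. Mice without estrogen receptor alpha (ERa-/-, called null) received estradiol (E2, 1 mg/kg) or a placebo, which was castor oil containing 5% ethanol, and so did mice with the receptor (ERa+/+, called wild type). All animals were ovariectomized at 4 weeks of age, gavaged at 9 weeks and killed 4 hours later under ketamine and xylazine anaesthesia, so no group had ovarian estrogen and none was followed beyond that single time. Null and wild type lines had common parents per the labels, which do not say which part of the receptor gene was removed, in which cells, or which animals shared a cage. A level is the log2 of the scanner's processed signal relative to the 75th percentile of its array, and it is set only against levels of the same probe.

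The liver makes much of the body's cholesterol. SREBP2, the protein of Srebf2, is held in the endoplasmic reticulum with its escort SCAP; when sterols are low the pair moves to the Golgi, SREBP2 is cut, and its freed end enters the nucleus and switches on the enzymes of the pathway. INSIG1 and INSIG2 hold SCAP back when sterols are plentiful. Insig1 is itself an SREBP target, whereas Insig2 in mouse liver also has a liver-specific transcript that insulin lowers.

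The targeted gene was read first. Esr1, which encodes the receptor, had levels of -1.31, -1.59, -1.73, -1.41 and -2.10 in null E2 livers and -0.93, -2.16, -1.51, -1.48 and -1.98 in null placebo livers, against 0.84, 0.12, 1.02, 0.83 and 0.21 in wild type E2 livers and 0.59, 0.39, 0.57, -0.04 and 0.42 in wild type placebo livers. All 10 null livers were below all 10 wild type livers. The difference was -2.23 ± 0.23 under E2 and -2.0 ± 0.23 under placebo (log2, null minus wild type, SE), with limma adjusted p-values of 1.8e-05 and 0.000482. The probe stayed above background in the nulls, and whether it lies in the deleted part is not stated in the labels. The 12 hepatocyte marker genes were all measured, and 0 of them were called in any of the 6 contrasts. In whole tissue, fewer cells of a type and less RNA per cell cannot be told apart.

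Regulatory sequence is shown for Hmgcs1 and Insig2, since Hmgcs1 was the only member gene with a window that held the sterol element searched for and Insig2 was the member called after E2. RefSeq promoter windows (assembly GRCm38.p6, 250 bases before to 50 after a start) were found for 22 of the 27 genes, in 28 windows. In the Hmgcs1 window, chr13:119690101-119690400 on the plus strand, capitals mark the sterol element TCACNCCAC and CCAAT boxes, written here as their reverse complement, ATTGG.
Hmgcs1 promoter: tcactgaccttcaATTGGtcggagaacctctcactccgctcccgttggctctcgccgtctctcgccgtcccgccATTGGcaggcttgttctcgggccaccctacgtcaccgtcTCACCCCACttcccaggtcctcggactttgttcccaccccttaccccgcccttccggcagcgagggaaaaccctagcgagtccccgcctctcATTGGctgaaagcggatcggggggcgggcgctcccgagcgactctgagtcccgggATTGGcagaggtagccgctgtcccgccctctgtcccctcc
The sterol element starts 137 bases before the start of transcription. It occurred in 1.24% of all 32851 windows, on either strand, and in 1 of the 28 member windows. Insig2 has 3 annotated starts on the minus strand of chromosome 1. Capitals in the windows of the outermost start, chr1:121332540-121332839, and of the next, chr1:121327975-121328274, mark GGTCA, a single arm of the estrogen response element, on either strand.
Insig2 outermost promoter: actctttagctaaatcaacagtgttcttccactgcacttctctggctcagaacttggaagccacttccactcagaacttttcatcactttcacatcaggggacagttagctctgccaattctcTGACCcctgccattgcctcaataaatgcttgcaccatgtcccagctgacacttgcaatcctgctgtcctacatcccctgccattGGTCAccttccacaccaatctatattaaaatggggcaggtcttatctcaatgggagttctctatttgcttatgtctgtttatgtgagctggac
Insig2 next promoter: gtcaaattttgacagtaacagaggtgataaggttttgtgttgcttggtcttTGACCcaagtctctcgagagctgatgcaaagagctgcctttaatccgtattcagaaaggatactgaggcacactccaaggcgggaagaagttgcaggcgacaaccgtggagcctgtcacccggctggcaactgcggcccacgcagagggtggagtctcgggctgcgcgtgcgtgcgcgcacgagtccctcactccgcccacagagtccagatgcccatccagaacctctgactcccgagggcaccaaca
The third Insig2 window held no GGTCA. That motif was in 40.5% of all windows and in 13 of the 28 member windows, and the full palindrome, in which GGTCA faces its reverse complement across 3 bases, was in 0.07% of all windows and in 0 member windows. CCAAT was in 20 of the 28 member windows and in 37.4% of all windows. The GC box GGGCGG was in 22 and in 35.7%, and the E-box CACGTG in 6 and in 7.15%. These are matches of letters on either strand.

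Among the sterol sensors, Insig2 rose with E2 in wild types, and it was the only member called for E2 in either genotype. Insig2, which encodes an anchor for SCAP, had levels of 6.22, 6.36, 6.47, 6.5 and 6.46 in wild type E2 livers, against 6.15, 5.45, 4.98, 4.78 and 4.43 in wild type placebo livers. The groups did not overlap, which was so in this direction for 0.968% of all genes. The 5 E2 livers lay within a much narrower range than the 5 placebo livers (SD 0.11 and 0.67). The wild type placebo levels fell in the order of the animal numbers in the labels, 753, 761, 777, 785 and 2082. The log2 change of Insig2 was 1.25 ± 0.26 (SE, n = 5 each; 2.37-fold), with a limma adjusted p of 0.0488. Of all genes, 0.318% were called in this contrast, 66 higher and 4 lower, and 8.28% had an unadjusted p under 0.05, as 2 of 26 members did.

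In nulls, Insig2 levels were 5.43, 5.19, 5.29, 5.27 and 5.29 with E2, against 6.39, 5.61, 6.14, 5.45 and 4.99 with placebo. The null placebo animals numbered 716, 718 and 720 were at 6.39, 5.61 and 6.14, and those numbered 773 and 788 at 5.45 and 4.99. The E2 livers again had the narrower range, and the groups overlapped. The log2 change was -0.42 ± 0.26, with a limma adjusted p of 0.859. The difference between the E2 effects, wild type minus null, was 1.67 ± 0.37 with an adjusted p of 0.109, so it missed the threshold over all genes, of which 0.164% were called. Under E2 all 5 null livers lay below all 5 wild type livers, which was so in this direction for 1.14% of all genes, with a log2 difference of -1.11 ± 0.26 (adjusted p = 0.0854). Under placebo the order was the other way, with a difference of 0.56 ± 0.26 and an adjusted p of 0.490.

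On the second Insig2 probe the wild type E2 livers again had the highest mean and the null placebo livers the next, with null E2 and wild type placebo livers close together below them. The brighter probe lies at chr1:123201085-123201144 and the second at chr1:123202133-123202192, both on the minus strand of mm9, 1048 bases apart. Levels on the second probe were 3.31, 2.95, 3.31, 3.21 and 3.08 in null E2 livers and 4.57, 3.77, 4.22, 3.42 and 3.29 in null placebo livers, and were 4.28, 4.55, 4.51, 4.55 and 4.38 in wild type E2 livers and 4.06, 3.61, 3.12, 2.93 and 2.41 in wild type placebo livers. The wild type placebo levels again fell in the order of the animal numbers. In a fit over all probes, the second probe's E2 effect was 1.23 ± 0.26 in wild types (adjusted p = 0.0458) and -0.68 ± 0.26 in nulls (adjusted p = 0.813), and the difference of 1.91 ± 0.36 was called (adjusted p = 0.0300), as was null against wild type under E2 (-1.28 ± 0.26, adjusted p = 0.0265). In that fit the brighter probe's E2 effect in wild types had an adjusted p of 0.0503.

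**Figure D1:**
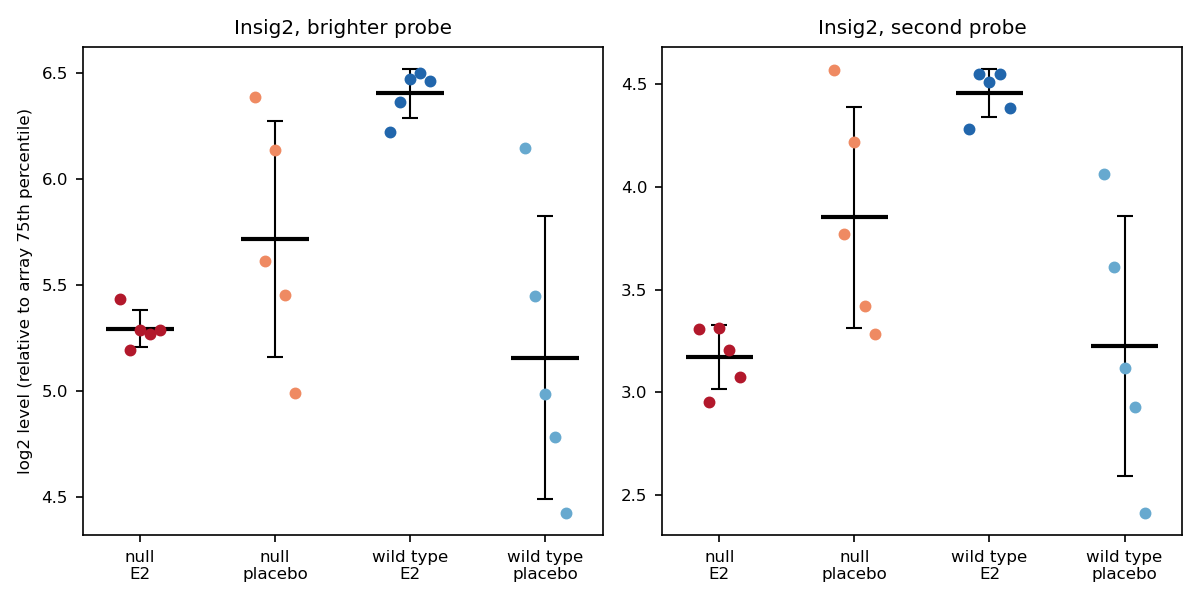
Insig2 log2 level (relative to the array's 75th percentile) on 2 probes in 4 groups. Points are animals, horizontal bars group means and vertical bars SD (n = 5); the wild type E2 livers lie between 6.22 and 6.5 on the brighter probe, above every wild type placebo and every null E2 liver.

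The call for Insig2 in wild types sat close to the threshold. Leaving out 1 animal at a time kept the change between 1.06 and 1.49, but the gene was called in 3 of 20 such fits: without wild type placebo animal 1, null placebo animal 1 or null placebo animal 5 (adjusted p from 0.00234 to 0.163 over the 20). It was called in 7 of 13 other settings. Wild type placebo animal 1, at 6.15, was the placebo liver nearest to the E2 livers. Within the 3 slides that held both wild type groups the difference was between 0.31 and 1.56. Markers of several other cell types also leaned upward with E2 in wild types, with 10 of 10 Kupffer cell, 10 of 10 endothelial, 7 of 7 lymphocyte and 5 of 5 erythroid markers above 0 and 0 called. Also above 0 there were 4 of 12 hepatocyte, 5 of 10 stellate, 3 of 6 cholangiocyte and 2 of 2 measured adipose markers. In nulls, E2 gave 10 of 10 Kupffer cell, 6 of 10 endothelial, 5 of 7 lymphocyte and 1 of 5 erythroid markers above 0. The summed linear level of the Kupffer cell markers ranged from 63.2 to 178 in wild type E2 livers and from 56.8 to 106 in wild type placebo livers. Those of the endothelial markers were 49.1 to 77.5 and 47.0 to 86.2, in the same order of groups, those of the lymphocyte markers 6.28 to 7.53 and 5.85 to 7.10, and those of the erythroid markers 227 to 352 and 151 to 218. Among the markers too dim to be kept were Ahsp and Epb42 (erythroid), Cd8a and Klrb1c (lymphocyte) and Adipoq, Plin1 and Lep (adipose). The part of animal numbers or other cells in the Insig2 result was not tested.

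The other 3 sensors were not called in any contrast. Srebf2, the transcription factor gene, had levels of -0.07, 0.33, -0.35, 0.06 and -0.17 in wild type E2 livers, against 0.00, -0.38, -0.47, -0.99 and -0.04 in wild type placebo livers. In nulls they were -0.05, 0.23, -0.24, -0.31 and 0.06 with E2, against -0.53, -0.05, 0.24, -0.19 and -0.46 with placebo. The groups overlapped in both genotypes, and the E2 effect was 0.34 ± 0.19 in wild types (adjusted p = 0.649) and 0.13 ± 0.19 in nulls. Insig1, the SREBP target among the anchors, was at 0.99, 1.1, 0.59, 1.05 and 0.70 in wild type E2 livers, against 0.89, 1.03, 0.91, 0.63 and 1.21 in wild type placebo livers. Its null levels were 0.73, 1.20, 0.97, 0.94 and 1.62 with E2, against 1.30, 1.44, 1.62, 0.58 and 1.12 with placebo. The Insig1 groups overlapped in both genotypes, with E2 effects of -0.05 ± 0.19 in wild types (95% interval -0.44 to 0.34) and -0.12 ± 0.19 in nulls. Scap, which escorts SREBP2, had E2 effects of -0.10 ± 0.10 in wild types and 0.03 ± 0.10 in nulls.

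The enzymes leaned higher in nulls than in wild types, over all animals with a larger median under placebo than under E2. Under placebo all 19 had a log2 difference above 0, with a median of 0.51, whereas 53.4% of all genes lay above 0 and the median of all genes was 0.01. Of the 26 members 0 were called under placebo, where 0.0727% of all genes were. Unadjusted limma p-values were below 0.05 for 11 of 26 members and for 10.1% of all genes. Under E2, 17 of 19 enzymes were above 0, beside 49.6% of all genes, with a median of 0.22, and 0 of 26 members were called by limma, against 0.464% of all genes. Unadjusted p-values were below 0.05 for 5 of 26 members and 9.63% of all genes. Averaged over both treatments, all 19 were above 0, beside 51.3% of all genes, with a median of 0.36. Acat2 was called, 1 of 26 members against 0.696% of all genes, and 10 of 26 members had an unadjusted p under 0.05, against 12.9% of all genes. The genes of a regulated pathway vary together within an animal, so the 19 are not 19 independent observations. The members were also chosen with earlier results of these data known, so these shares are a description and not a test.

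**Figure D2:**
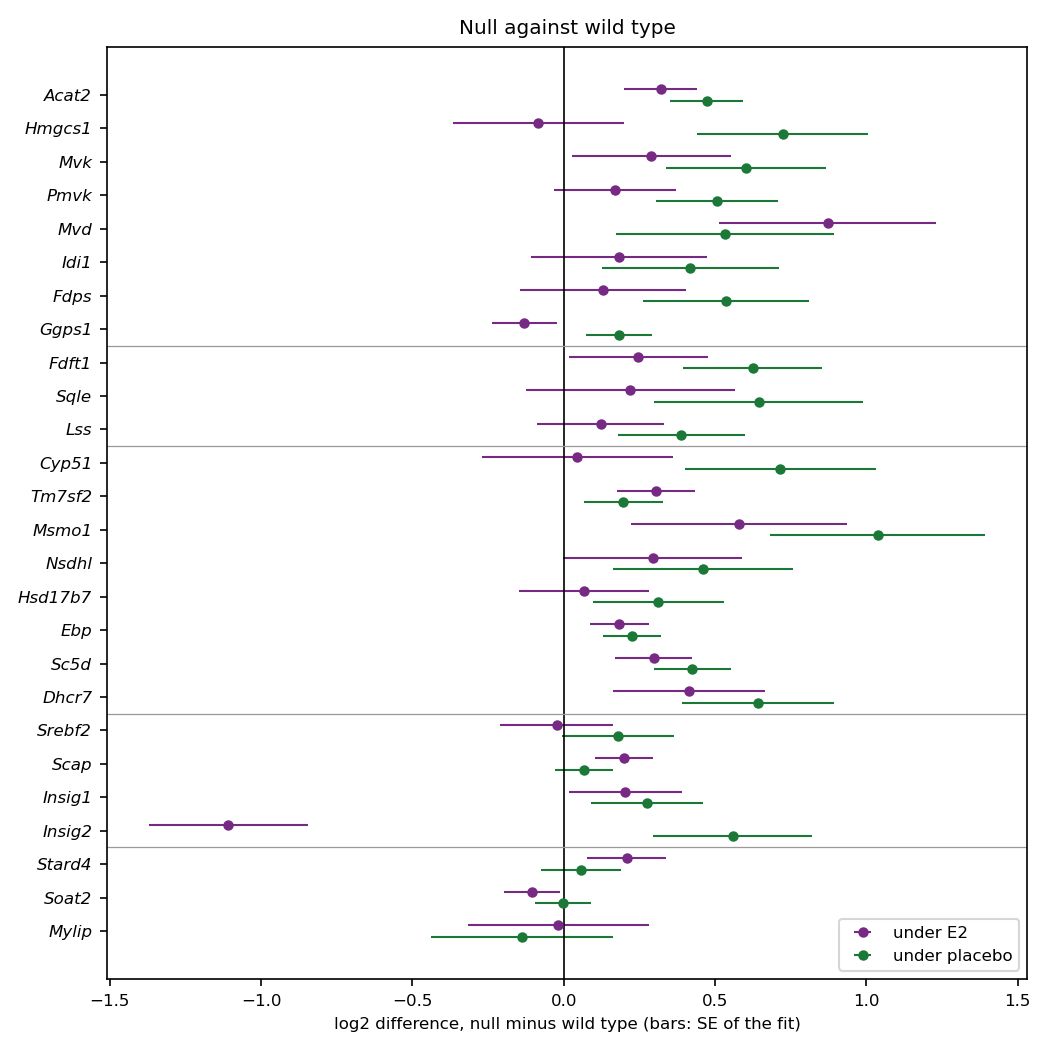
Log2 difference, null minus wild type, for the 26 measured members in order of role, under E2 and under placebo (points, with the SE of the fit). All 19 enzymes lie right of 0 under placebo, and Insig2 lies at -1.11 under E2 and 0.56 under placebo.

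Among the enzymes, Acat2 had the smallest p for genotype, averaged and under either treatment. Acat2, which joins acetyl-CoA units at the head of the pathway, was at 5.60, 5.78, 5.28, 5.58 and 5.45 in null E2 livers and 5.72, 5.79, 5.45, 5.49 and 5.51 in null placebo livers. Its levels were 5.28, 5.45, 5.39, 5.06 and 4.91 in wild type E2 livers and 5.32, 5.26, 4.89, 4.98 and 5.15 in wild type placebo livers. Under placebo all 5 null livers were above all 5 wild type livers, which was so in the same direction for 1.2% of all genes, and under E2 4 of 5 were. The averaged difference was 0.40 ± 0.09 (SE, 10 against 10 animals; 1.32-fold), with a limma adjusted p of 0.0365. It was 0.47 ± 0.12 under placebo (adjusted p = 0.184) and 0.32 ± 0.12 under E2 (adjusted p = 0.425). The averaged difference stayed between 0.36 and 0.43 without any 1 animal, yet was called in 8 of 20 such fits. The Acat2 probe lies at chr17:13136482-13136541 on mm9.

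Hmgcs1, which makes HMG-CoA, had levels of 5.65, 6.12, 5.18, 5.16 and 5.26 in wild type E2 livers, against 5.08, 5.13, 4.49, 4.58 and 4.92 in wild type placebo livers. These groups did not overlap either, which in this direction was so for 2 of 26 members and 0.968% of all genes. In nulls it was at 5.16, 6.4, 5.06, 5.15 and 5.16 with E2, against 5.27, 6.32, 5.95, 4.93 and 5.34 with placebo. The E2 effect was 0.63 ± 0.28 in wild types (limma adjusted p = 0.566) and -0.17 ± 0.28 in nulls (adjusted p = 0.968), and their difference of 0.81 ± 0.40 had an adjusted p of 0.685. Under placebo the null livers were higher by 0.72 ± 0.28 (adjusted p = 0.370), with 4 of 5 above every wild type liver.

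Mvd, which decarboxylates mevalonate diphosphate, varied most between animals of a group (SD within groups 0.60). It was at -0.36, 1.24, -0.11, 0.07 and 1.1 in null E2 livers and -0.52, 1.20, 0.52, -0.17 and 0.15 in null placebo livers. In wild types it was at -0.29, -0.28, -0.92, -0.21 and -0.70 with E2 and -0.69, -0.35, -0.35, -0.86 and 0.75 with placebo. Under E2, 4 of 5 null livers were above every wild type liver, with a difference of 0.87 ± 0.36 and an adjusted p of 0.482. Ggps1, which makes the geranylgeranyl unit for protein prenylation rather than for cholesterol, stood at the low end of the enzymes for genotype. Its levels were 0.76, 0.60, 0.83, 0.77 and 0.78 in null E2 livers, against 1.39, 0.96, 1.01, 0.82 and 1.01 in null placebo livers, a difference of -0.29 ± 0.11 with an adjusted p of 0.818. Wild type levels were 0.93, 1.04, 0.89, 0.75 and 0.79 with E2, against 0.89, 1.03, 1.01, 0.82 and 0.52 with placebo.

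The mevalonate kinases Mvk and Pmvk and the isoprenoid enzymes Idi1 and Fdps were 0.60, 0.51, 0.42 and 0.54 higher in null than in wild type livers under placebo (log2, SE 0.20 to 0.29), and 0.29, 0.17, 0.18 and 0.13 under E2, with 0 called. Fdps, which makes farnesyl diphosphate, had the lowest E2 effect of the members in nulls, -0.44 ± 0.27 (adjusted p = 0.859), beside -0.03 ± 0.27 in wild types.

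Of the 3 enzymes that build squalene and close its rings, Sqle had the widest range. Sqle, the squalene epoxidase and a rate-limiting step, was at 3.90, 4.82, 3.84, 4.14 and 4.55 in null E2 livers and 4.54, 5.01, 5.07, 3.61 and 3.93 in null placebo livers. In wild types it was at 3.87, 4.69, 3.75, 4.19 and 3.63 with E2 and 4.03, 4.08, 3.92, 2.47 and 4.43 with placebo. The groups overlapped in every comparison, with null against wild type at 0.64 ± 0.35 under placebo (adjusted p = 0.550) and 0.22 ± 0.35 under E2. Fdft1, which joins farnesyl units into squalene, differed by 0.62 ± 0.23 under placebo and 0.25 ± 0.23 under E2. Lss, which folds squalene epoxide into lanosterol, differed by 0.39 ± 0.21 and 0.12 ± 0.21.

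Among the 8 enzymes from lanosterol to cholesterol, all were above 0 for null against wild type under both treatments and 0 were called. Msmo1 (Sc4mol on the array), which starts removal of the methyl groups at carbon 4, had the largest placebo difference of the members. It was at 5.20, 6.37, 5.15, 5.61 and 6.14 in null E2 livers and 5.48, 6.25, 5.94, 5.08 and 5.17 in null placebo livers. In wild types it was at 5.25, 5.57, 4.87, 5.20 and 4.70 with E2 and 4.81, 4.72, 4.32, 3.23 and 5.64 with placebo. The placebo difference of 1.04 ± 0.36 (2.05-fold, adjusted p = 0.320) and the averaged difference of 0.81 ± 0.25 (adjusted p = 0.143) both missed the threshold, and wild type placebo animal 5, at 5.64, lay above 3 of the 5 null placebo livers.

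Sc5d, a desaturase late in the pathway, had a smaller difference with less spread. Levels were 5.97, 6.18, 6.08, 6.01 and 6.44 in null E2 livers and 6.11, 6.53, 6.23, 6.09 and 6.32 in null placebo livers. They were 5.69, 5.99, 5.87, 5.98 and 5.68 in wild type E2 livers and 5.91, 5.91, 5.68, 5.47 and 6.17 in wild type placebo livers. The averaged difference was 0.36 ± 0.09 (1.28-fold), with an adjusted p of 0.0664. It was called in 1 of the 20 fits that left out an animal, the one without wild type placebo animal 5 (adjusted p = 0.0292).

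Cyp51, which removes the methyl group at carbon 14 of lanosterol, was at -0.13, 1.04, 0.15, 0.54 and 0.59 in null E2 livers and 0.83, 1.17, 1.22, 0.06 and -0.28 in null placebo livers. In wild types it was at 0.61, 0.67, 0.01, 0.79 and -0.11 with E2 and 0.22, 0.10, -0.16, -1.04 and 0.29 with placebo. Null against wild type gave 0.72 ± 0.32 under placebo (adjusted p = 0.449) and 0.05 ± 0.32 under E2. Dhcr7, the last reductase of the pathway, differed by 0.64 ± 0.25 under placebo and 0.42 ± 0.25 under E2, with an averaged adjusted p of 0.183. The others lay closer to 0. Nsdhl and Hsd17b7, which work with Msmo1 at carbon 4, differed by 0.46 ± 0.30 and 0.31 ± 0.22 under placebo, the isomerase Ebp by 0.23 ± 0.10, and Tm7sf2, a sterol reductase, by 0.20 ± 0.13.

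**Figure D3:**
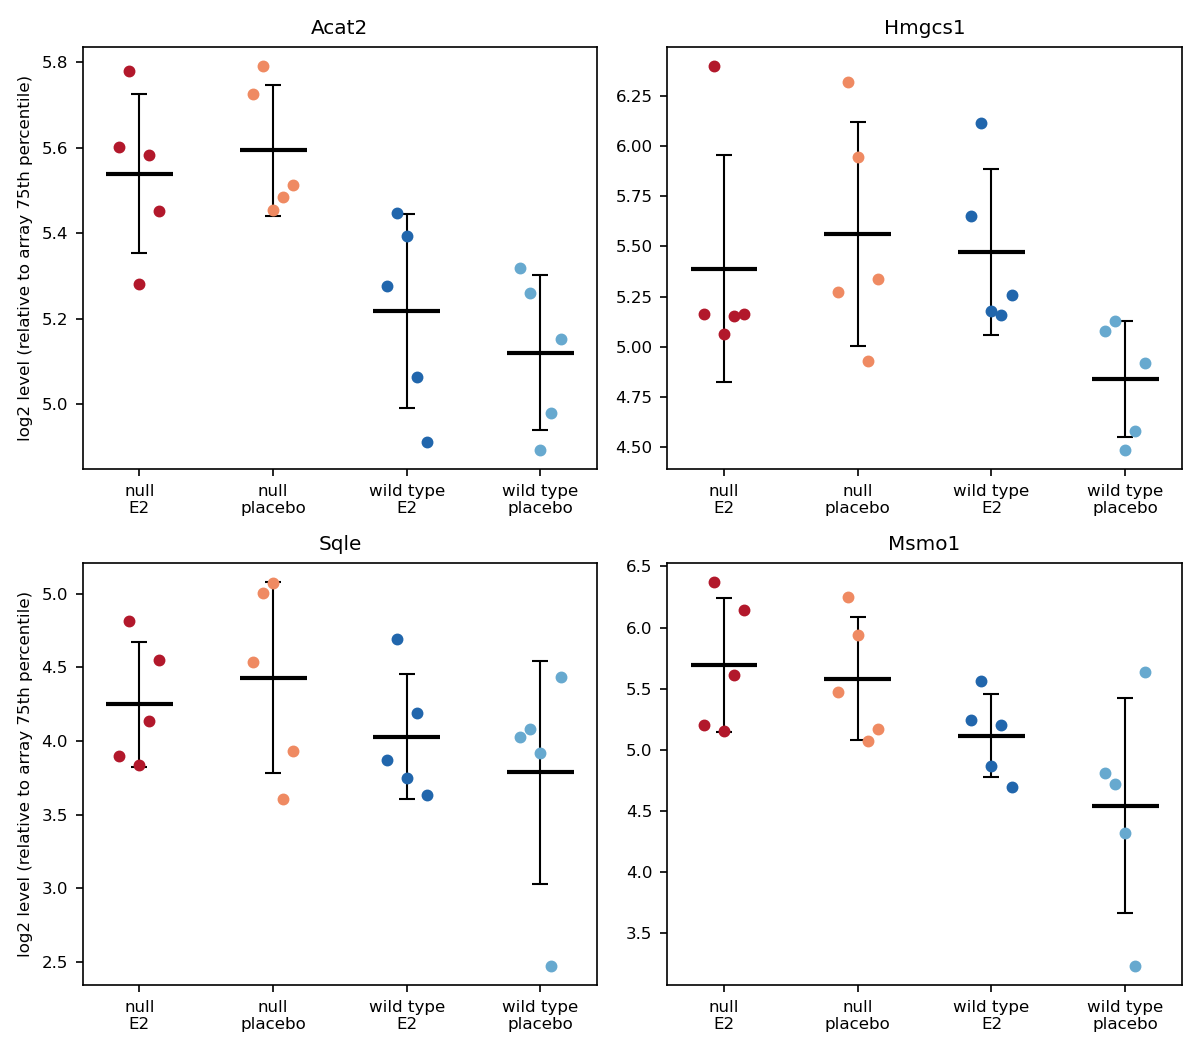
Log2 level (relative to the array's 75th percentile) of 4 enzymes in 4 groups. Points are animals, horizontal bars group means and vertical bars SD (n = 5); all 5 null placebo livers lie above all 5 wild type placebo livers for Acat2, and wild type placebo animal 4 lies at 2.47 for Sqle.

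The size of this lean depended in part on single animals. Each enzyme's level was set against its mean over the 20 animals, and the median over the 19 enzymes was taken per animal. It ranged from -0.23 to 0.42 in null E2 livers and -0.14 to 0.88 in null placebo livers, against -0.28 to 0.16 in wild type E2 livers and -0.82 to 0.25 in wild type placebo livers. The highest was null placebo animal 2, which had the highest level of all 20 animals for 10 of 19 enzymes. The lowest was wild type placebo animal 4, with the lowest level of all 20 for 14 of 19. Their arrays had 60.4% and 58.7% of non-control spots well above background, inside the range of 51.6% to 70.0% over all arrays. Each was the highest of its own group, where the lowest was 51.6% for null placebo and 55.2% for wild type placebo. Without null placebo animal 2 the median placebo difference of the enzymes was 0.37, and without wild type placebo animal 4 it was 0.36, with all 19 above 0 in both cases.

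**Figure D4:**
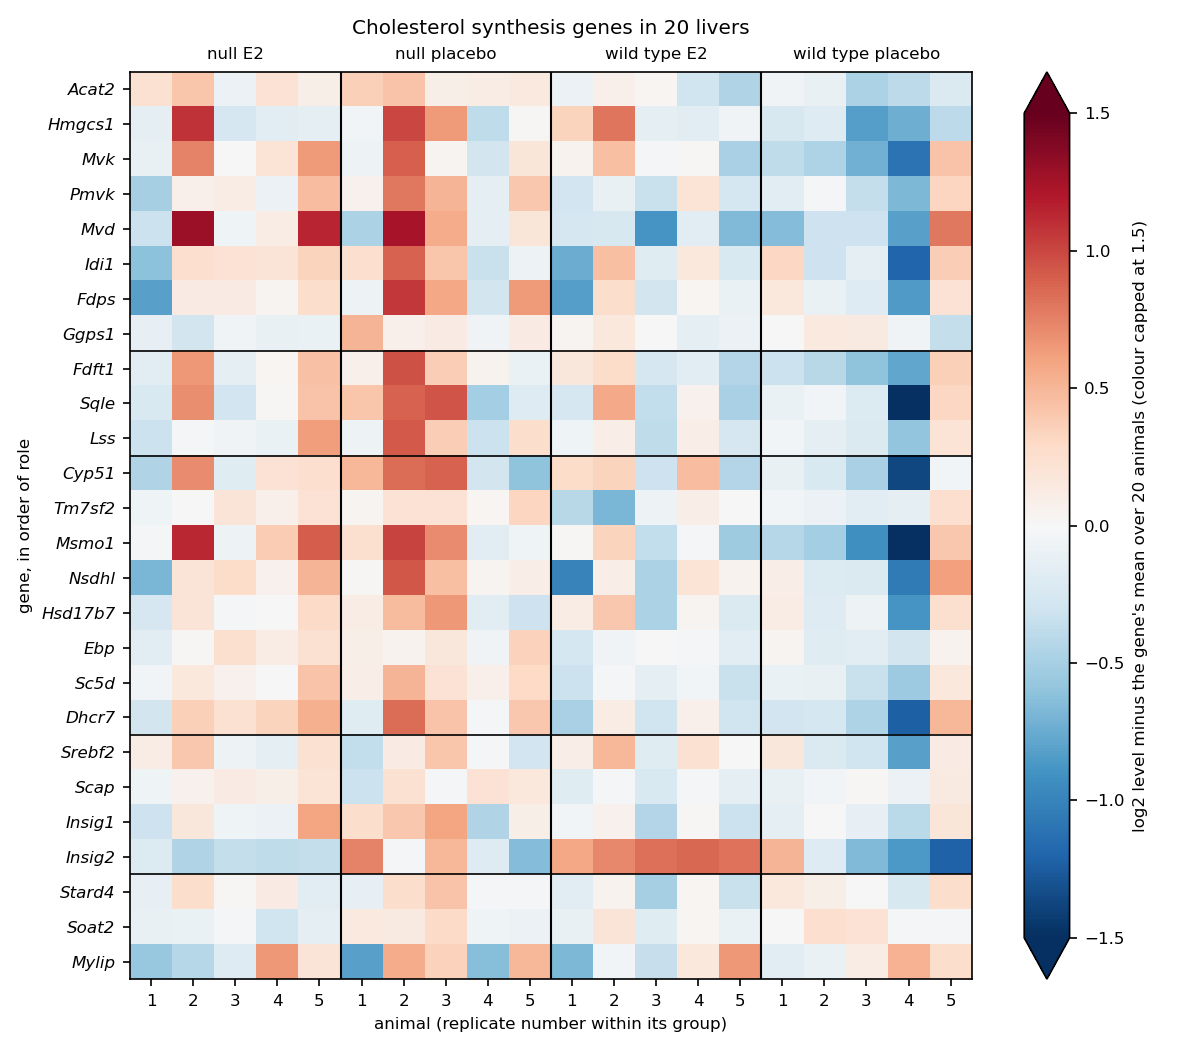
Log2 level of each measured member minus its mean over the 20 animals, one column per animal in 4 groups and rows in order of role, with colour capped at 1.5. The red column of null placebo animal 2 and the blue column of wild type placebo animal 4 run through most enzymes, while the Insig2 row is above its mean in all 5 wild type E2 livers.

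The lean also moved with array and animal. Null against wild type under placebo gave 19, 19 and 12 of 19 enzymes above 0 within slides 1, 2 and 3, and under E2 it gave 2, 17 and 18 within slides 1, 2 and 4, with 1 or 2 animals of a group per slide. The labels number the animals, and 3 null placebo, 2 null E2, 2 wild type E2 and 0 wild type placebo animals had a number below 750; the labels do not explain the numbers. Among animals numbered 750 or above, 16 of 19 enzymes were above 0 under placebo (median 0.28) and 17 under E2 (median 0.32). The lean was thus not larger under placebo in these animals. On average over treatments all 19 were above 0 in them, with a median of 0.29. Within slide 3 the placebo median was 0.13. Markers above 0 for null against wild type under placebo were 11 of 12 hepatocyte genes, 5 of 5 erythroid genes, of which Alas2 was called (adjusted p = 0.00249), and 11 of 12 genes of a list that follows feeding, with 0 of these feeding genes called. Also above 0 were 6 of 7 lymphocyte, 5 of 6 cholangiocyte and 2 of 2 measured adipose markers, with 0 called, whereas 4 of 10 Kupffer cell, 2 of 10 endothelial and 3 of 10 stellate markers were above 0. The summed linear level of the adipose markers ranged from 0.158 to 0.427 in null placebo livers and from 0.0935 to 0.160 in wild type placebo livers. The summed linear level of the erythroid markers ranged from 203 to 301 in null placebo livers and from 151 to 218 in wild type placebo livers, and that of the feeding genes from 1736 to 2135 in null placebo livers and from 1350 to 1925 in wild type placebo livers. Of 9 measured genes of a list that follows the daily clock, 6 were above 0 under placebo, from -0.82 to 1.08, with 0 called. Unadjusted limma p-values were below 0.05 for 3 of these 9 clock genes and for 10.1% of all genes. Under E2, 8 of the 9 were above 0 for null against wild type, with 0 called. The part of slides, animal numbers, other cells, feeding or the clock in the enzymes' lean was not tested.

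For E2 itself, the enzymes showed no effect that was called in either genotype. In wild types 15 of 19 were above 0, with a median of 0.08, and in nulls 3 of 19 were, with a median of -0.12, beside 50.6% and 46.8% of all genes. In nulls 0.00455% of all genes (1 gene) were called by limma and 0 members, and 2 of 26 members had an unadjusted p under 0.05, against 6.06% of all genes. The difference between the genotypes was above 0 for 17 of 19 enzymes, with a median of 0.27, against 53.4% of all genes. None was called, and 1 of 26 members had an unadjusted p under 0.05, against 7.39% of all genes. These comparisons share groups with those of genotype, so the lean in nulls and the lean under placebo are not separate observations. These counts moved when 1 animal at a time was left out: the wild type count ran from 7 to 17 (median -0.05 to 0.15) and was lowest without wild type placebo animal 4. The null count ran from 1 to 7 (median -0.20 to -0.03), with the median nearest 0 without null placebo animal 2. That for the difference ran from 14 to 18 (median 0.12 to 0.38) and was lowest without wild type placebo animal 4. Scaling arrays to their median moved the median of all genes too, to -0.22 for E2 in wild types, where the enzymes' median was -0.14 with 6 of 19 above 0. Among animals numbered 750 or above the null count was 13 of 19 and the count for the difference 8 of 19.

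**Figure D5:**
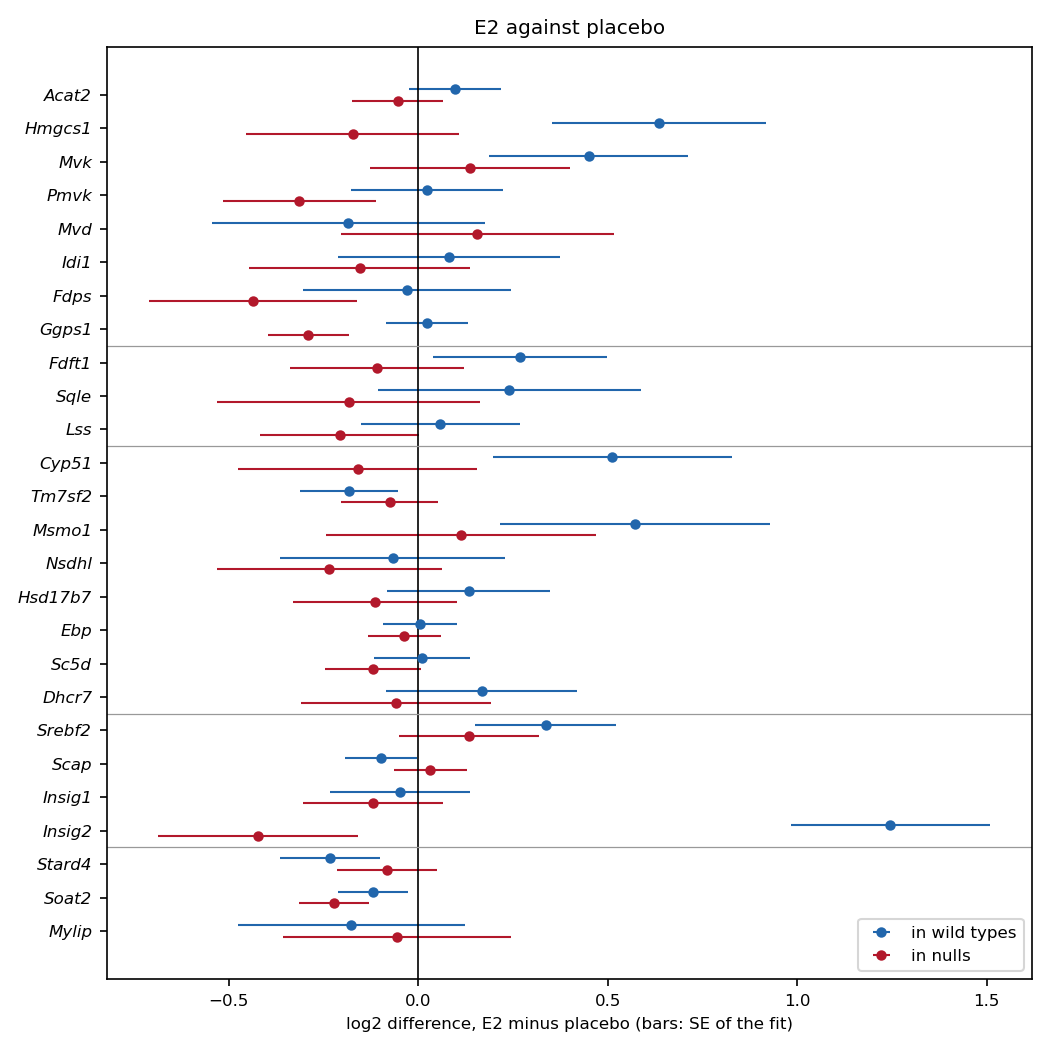
Log2 difference, E2 minus placebo, for the 26 measured members in order of role, in wild types and in nulls (points, with the SE of the fit). Insig2 lies at 1.25 in wild types and -0.42 in nulls, and the enzymes lie between -0.44 and 0.63.

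The genes of cholesterol handling differed little between groups. Soat2, which esterifies cholesterol in hepatocytes, had the smallest spread within groups (SD 0.14). It was at 3.98, 3.99, 4.06, 3.79 and 3.94 in null E2 livers, against 4.24, 4.22, 4.37, 4.02 and 4.00 in null placebo livers, a difference of -0.22 ± 0.09 with an adjusted p of 0.818. Wild type levels were 3.97, 4.28, 3.91, 4.11 and 3.99 with E2, against 4.09, 4.34, 4.30, 4.06 and 4.06 with placebo, and the difference was -0.12 ± 0.09. Stard4, a carrier of cholesterol between membranes, had E2 effects of -0.23 ± 0.13 in wild types and -0.08 ± 0.13 in nulls. Mylip, a ubiquitin ligase for lipoprotein receptors, had -0.18 ± 0.30 and -0.06 ± 0.30. None of the 3 had a genotype difference beyond 0.21 in size under either treatment.

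Other genes of the pathway were taken from 4 lists. None of the 8 further synthesis genes, 12 genes that use isoprenoids, 12 genes of SREBP processing or 18 genes of sterol transport was called in any contrast. Of the 8 synthesis genes, 7 were above 0 for null against wild type under placebo. Tmem97, a sterol-responsive membrane protein, averaged 5.20 in null E2 and 5.19 in null placebo livers, against 4.91 in wild type E2 and 4.77 in wild type placebo livers, an averaged difference of 0.36 ± 0.08 with an adjusted p of 0.0524. Erg28, a scaffold for the enzymes at carbon 4 in yeast, had an averaged difference of 0.41 ± 0.10 (adjusted p = 0.0657). Erlin1 and Erlin2, which take part in degrading sterol-regulated proteins of the endoplasmic reticulum, had 0.26 ± 0.07 (adjusted p = 0.0769) and 0.21 ± 0.06 (adjusted p = 0.114). Among the isoprenoid users, the largest of the placebo differences was 0.26 ± 0.10 for Coq2, which prenylates the ring of coenzyme Q, and 9 of 12 were above 0. Of the SREBP processing genes 6 of 12 were above 0, and of the transport genes 12 of 18.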

How the data were processed

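Liver RNA with an integrity number above 9 was labelled with Cy3, per the labels' protocols, and 20 arrays were scanned on 4 slides, of which 2 held all 4 groups. Per the file headers, Agilent Feature Extraction (version 10.10.1.1) turned the images into a processed intensity for every spot, with background subtracted and spatial trends removed. A second deposited file holds log2 values of 32526 probes. Set against the scanner's median signals, its columns correlated at 0.9987 to 1.0, and their medians were 7.85. It was used as an alternative; no centring of genes was seen in it, and the submitters' processing notes name limma without a version.

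Each log2 processed intensity was set against its array's 75th percentile (59305 non-control spots), non-uniform spots (0 to 16 per array) were left out and no spot was saturated. Probes were kept where 4 or 5 arrays of some group had them well above background (30961 of 55681 probes), and the brightest kept probe stood for a gene. Probes were named by RefSeq accession (27235), symbol (3581) or synonym (565), and otherwise as on the array (24300). Probe positions are on mm9, per the file headers.

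Tests used limma (version 3.58.1, R 4.3.3), 2-sided, in 1 fit of 4 group means (16 residual degrees of freedom), with Benjamini-Hochberg adjustment over 21998 genes, separately for 6 contrasts, at a threshold of 0.05. "Called" means past that threshold. Tables and plots were made with Python 3.11.15. In simulated data, the fit for E2 in wild types recovered 76% of genes changed by a log2 of 1 and 97% of those changed by 2. Of its 188 calls, 15 were false. Smaller changes were not simulated. The number of arrays limits the precision. Every measured value of an animal was given for called members, for the 3 members with the smallest p in each contrast, and for Hmgcs1, Sqle, Cyp51, Srebf2, Insig1 and Insig2; of each other pathway list up to 2 genes were named. The members and lists were chosen with earlier results of these data known. In none of the 4 comparisons of 2 groups did every pair of animals with the same replicate number correlate above 0.1 (8 of 20 pairs did, range -0.16 to 0.24; 4 of 5 for null E2 with wild type E2), so the numbers were not taken as pairs. Alternatives covered background correction, scaling, the deposited table, the filter, probes per gene, slide, animal number, replicate number, the arrays fitted and leaving out each animal.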

Additional observations from a re-analysis of the deposited data

Results flagged for a closer look

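Of 104 groups of 5 animals (26 members in 4 groups), 4 held an animal set far apart from the other 4, at the gap over range of 0.71 that chance passes in about 1 group in 20. Hmgcs1 was at 6.4 in null E2 animal 2, with the next liver at 5.16. Idi1 was at 4.68 in null E2 animal 1, with the next at 5.49. Fdps was at 5.38 in the same animal, with the next at 6.24. Sqle was at 2.47 in wild type placebo animal 4, with the next at 3.92. Null E2 animal 1 was the lowest of its group for 14 of 19 enzymes.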

How the results depend on the processing

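Over the 26 members, no call changed direction. Genes called for E2 in wild types (70) were 32 with array median scaling, 41 in animals numbered 750 or above and 46 with the compared groups alone; members called (1) were 0 with each of these, without the filter, with slide as a fixed block and with animal number as a block. For E2 in nulls (1 gene) the count was 0 with median scaling, no filter, the mean of probes, the replicate block, animals numbered 750 or above and the compared groups alone, and 2 with slide as a fixed block. For the difference of E2 effects (36) it was 18 with median scaling and 10 in animals numbered 750 or above, and 1 member was called in the deposited table. For null against wild type under placebo (16) it was 7 with median scaling, 8 without the filter, 9 with slide as a fixed block, 2 in animals numbered 750 or above and 8 with the compared groups alone. Under E2 (102) it was 39 with median scaling and 35 in animals numbered 750 or above, and 1 member was called with quantile scaling, the deposited table, the mean of probes and the compared groups alone. Averaged over treatments (153) it was 49 with median scaling, 70 without the filter, 68 with slide as a fixed block and 49 in animals numbered 750 or above; members called (1) were 0 with these 4, quantile scaling, the deposited table and animal number as a block. Restricting animals leaves fewer of them; the cause of the other shifts was not tested.

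Leaving out 1 animal gave 50 to 87 genes and 0 to 1 members for E2 in wild types, 0 to 2 and 0 to 0 in nulls, 31 to 40 and 0 to 1 for the difference, 6 to 46 and 0 to 0 for genotype under placebo, 67 to 120 and 0 to 1 under E2, and 77 to 273 and 0 to 2 averaged. The replicate block gave 90 genes for E2 in wild types and kept Insig2 (adjusted p = 0.0276) and Acat2 (adjusted p = 0.0145). Median scaling moved the median of all genes by -0.22 for E2 in wild types, -0.12 in nulls, -0.10 for their difference and 0.11 for null against wild type under E2. Over all alternatives other than leaving out animals, the Insig2 change in wild types was 1.02 to 1.32 (adjusted p 0.00907 to 0.342) and the averaged Acat2 difference 0.33 to 0.45 (adjusted p 0.0145 to 0.257).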

Other observations

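For the 10 members with several kept probes, the 12 further probes had the same sign as the one used for 7 of 12 in E2 in wild types, 11 of 12 in null against wild type under placebo and 9 of 12 in null against wild type under E2. The largest gap between probes of a member was 0.31 for E2 in wild types.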
